A study of Mus musculus with 20 samples.

Results

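The comparison described here is the tissue-by-genotype difference: for each gene, the effect of genotype in kidney minus the effect of genotype in liver. All 20 libraries entered 1 fit with a mean for each of 4 groups, and every gene that passed the filter on low counts was tested, 17606 of the 54532 genes in the count table. Of these, 265 were called, that is, their difference passed an adjusted p of 0.05 in edgeR's quasi-likelihood test. The mice were male C57BL/6, either wild type or labelled Lxrα-/-, and each group held 5 libraries, from wild-type kidney, labelled Lxrα-/- kidney, wild-type liver and labelled Lxrα-/- liver. Age, diet, how the allele was made and whether the mice were littermates are not in the labels. Levels below are CPM (counts per 1000000 counted, scaled by library size and TMM factor), listed from lowest to highest over the 5 libraries of a group. Sums over marker lists are the exception, as they were scaled by total counts alone, without the TMM factor. They are therefore on another scale than the levels of single genes. Effects and differences are on the log2 scale, with the standard error after the ± sign, and "the labelled knockout" means the libraries labelled Lxrα-/-.

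Lxrα, the product of Nr1h3, is a nuclear receptor that binds oxysterols and works as a partner of the retinoid X receptor. In liver it is known for driving fatty acid synthesis and for genes of cholesterol efflux and excretion, and kidney expresses it too. Kidney and liver also share a group of enzymes and carriers for steroids, drugs and organic anions, many of which are set by sex and by growth hormone in liver. A gene can therefore differ between kidney and liver in one genotype and not in the other, and the tissue-by-genotype difference measures this directly.

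Nr1h3 itself was higher in the labelled knockout in both tissues, so its counts do not check the labels. It stood at 38.2, 40.6, 41.9, 42.4 and 43.9 CPM in wild-type kidney and 79.6, 93.4, 99.6, 110.3 and 129.6 in labelled knockout kidney, at 105, 112, 116, 127 and 150.5 in wild-type liver and 178, 192, 209, 225 and 239.6 in labelled knockout liver. No library of one genotype overlapped the other in either tissue. The genotype effect was 1.31 in kidney and 0.78 in liver, and the 2 effects were not called different (log2 difference 0.53 ± 0.20, adjusted p = 0.236). Nr1h2, which encodes the related receptor Lxrβ, was not called either (log2 difference 0.16 ± 0.22, adjusted p = 0.771). Total counts ran from 23421561 to 35376342 per library. Hepatocyte markers (15 genes) summed to between 88910 and 141500 CPM in the livers and between 85.3 and 638 CPM in the kidneys, and proximal tubule markers (13 genes) to between 23120 and 56690 CPM in the kidneys and between 5.52 and 53.7 CPM in the livers, so the tissue labels held in every library. By genotype, the hepatocyte sum in liver was 123800 to 141500 CPM in wild type and 88910 to 107700 in the labelled knockout. None of the 15 was called in liver, and their part in the liver effects was not tested. Wild-type kidney 3 stood apart with 50.8% mitochondrial counts and wild-type kidney 1 with 7.21%, against 12.6% to 21.1% in the other 8 kidneys. In bulk tissue, fewer cells of a type and less RNA per cell cannot be told apart.

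The genotype effect differed between the tissues for 265 genes, 1.51% of those tested. It was higher in kidney than in liver for 165 (0.937%) and lower for 100 (0.568%). The liver carried the larger effect in 186 of the 265. Taken tissue by tissue in the same fit, the genotype effect was called for 948 genes (5.38%) in kidney and 773 (4.39%) in liver. Among the 265 it was called in liver alone for 157, in kidney alone for 57, in both with opposite signs for 18, in both with the same sign for 3, and in neither for 30. Tissue differences themselves were wide: 10467 genes (59.5%) were called between kidney and liver in wild type, 32.6% of those tested higher in kidney and 26.8% lower, and 10577 (60.1%) in the labelled knockout, 31.4% higher and 28.7% lower. Of 7308 genes with a called wild-type tissue difference of at least 1 in size, 191 (2.61%) were called for the tissue-by-genotype difference, so most tissue differences were not called changed. The number of calls moved with single libraries. It was 487 without wild-type kidney 6 (258 higher and 229 lower, with 262 of the 265 among them), 165 without labelled knockout kidney 4, 171 without wild-type liver 5 and 173 without wild-type liver 6. Without wild-type kidneys 1 and 3 it was 303, of which 69.3% were higher, against 62.3% with all libraries.

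**Figure D1:**
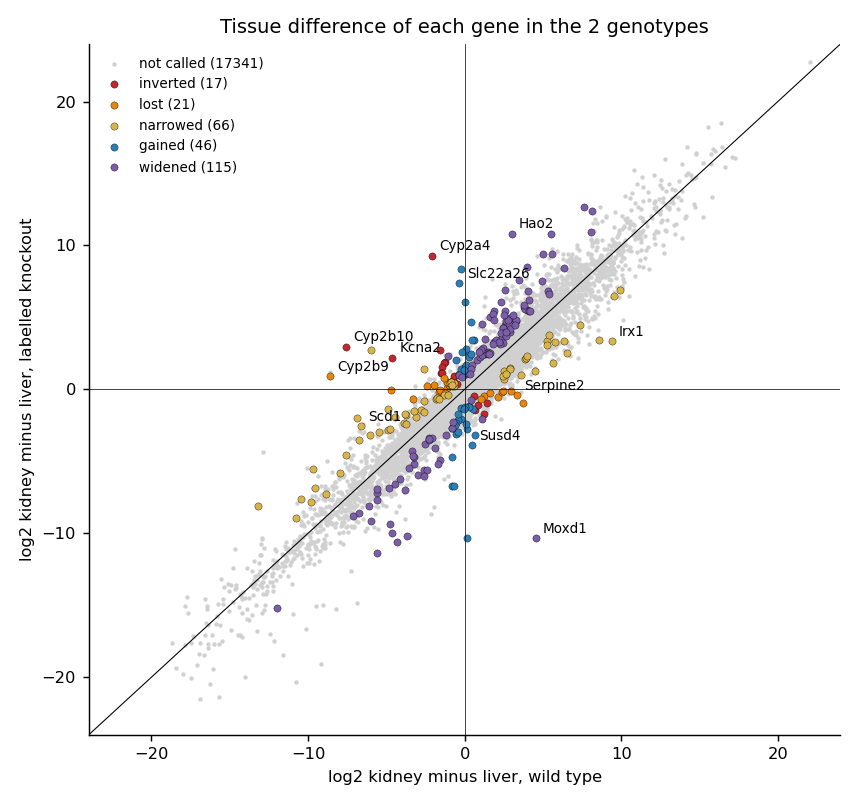
Each point is 1 of 17606 genes, with the log2 kidney-minus-liver difference in wild type on the x axis and in the labelled knockout on the y axis; the diagonal marks equal differences, and colours mark the 265 called genes by what the tissue difference did. Cyp2a4, Cyp2b10 and Kcna2 lie in the quadrant of reversal, and Slc22a26, Susd4 and others lie far from the diagonal near a wild-type difference of 0.

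Called genes were sorted by what their tissue difference did, which rests on the same values as the call and is a description. The tissue difference inverted in 17 genes: it was called in each genotype with opposite signs, 12 of them liver-high and 5 kidney-high in wild type. It was lost in 21, which were called at a size of at least 1 in wild type but not called and under 1 in the labelled knockout, 12 of them liver-high and 9 kidney-high in wild type. The mirror of loss, a gained difference, was found in 46. The remaining genes met none of these rules and had a tissue difference of smaller size in the labelled knockout (narrowed, 66) or of larger size (widened, 115). Some of them were not called in one genotype, such as Nadk in the labelled knockout and Moxd1 in wild type. The median size of the tissue difference went from 1.96 in wild type to 0.31 in the labelled knockout for lost genes, from 0.26 to 2.30 for gained genes, and from 1.31 to 1.43 for inverted genes. The liver effect alone was called in 11 of the 17 inverted and 14 of the 21 lost genes.

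**Figure D2:**
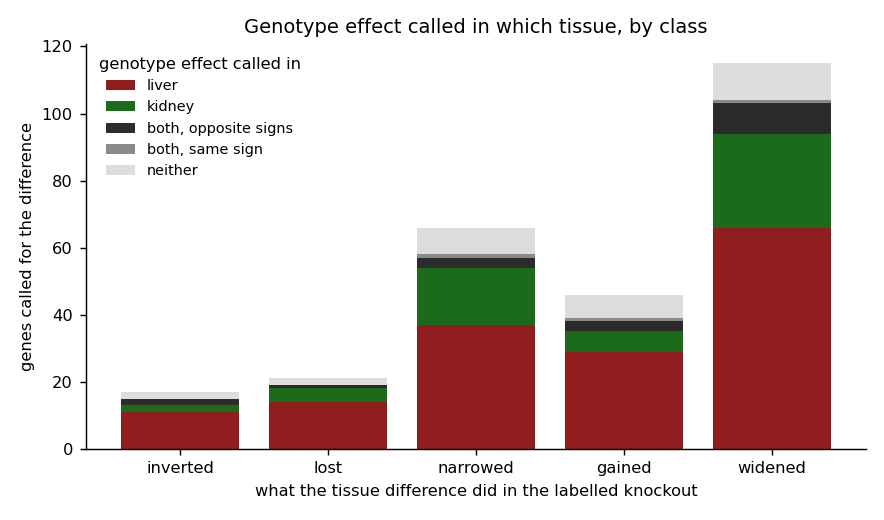
Bars count the 265 called genes by what the tissue difference did in the labelled knockout (x axis), stacked by the tissue in which the genotype effect itself was called. The liver effect alone makes up the largest share of every bar, with 11 of 17 inverted, 14 of 21 lost, 37 of 66 narrowed, 29 of 46 gained and 66 of 115 widened genes.

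The largest inversion was that of Cyp2a4 (mm10 chromosome 7, 26307169 to 26315088), which encodes a steroid 15-hydroxylase of the cytochrome P450 family that is female-biased in mouse liver. In wild type it was lower in kidney, at 28.7, 63.6, 74.9, 101 and 124 CPM, than in liver, at 142, 160.4, 230.0, 232 and 876. In the labelled knockout it was at 349, 385, 421, 435 and 512 in kidney and at 0.209, 0.329, 0.585, 0.974 and 1.24 in liver. No 2 groups overlapped within a tissue or within a genotype, and the order of the tissues reversed. Cyp2a4 rose by 2.42 in kidney (adjusted p = 0.00336) and had an effect of -8.94 in liver (adjusted p = 1.04e-08), so that the tissue difference went from -2.07 to 9.30 (log2 difference 11.36 ± 0.77, adjusted p = 1.34e-08). Wild-type liver 5 was the highest of its group, and without it the difference was 10.59 with an adjusted p of 2.2e-10. Of the 50-base windows of the Cyp2a4 transcript, 36.1% also occur in its neighbour Cyp2a5, so reads of the 2 genes could be split between them. Cyp2a5 was not called for the difference (log2 difference 2.25 ± 0.72, adjusted p = 0.138) and had a liver effect of -0.42, against -8.94 for Cyp2a4. In kidney it rose by 1.83 (adjusted p = 0.0436), in the same direction as the 2.42 of Cyp2a4. The part of shared reads in these effects was not tested.

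Dpy19l3 and Kcna2 inverted through liver, in opposite directions. Dpy19l3, which encodes a C-mannosyltransferase of the endoplasmic reticulum, stood at 5.55, 6.51, 6.86, 7.62 and 7.67 CPM in wild-type kidney and 2.89, 3.84, 4.76, 5.15 and 5.21 in wild-type liver, against 8.84, 8.92, 9.12, 9.50 and 10.3 in labelled knockout kidney and 20.7, 24.1, 24.5, 27.6 and 28.55 in labelled knockout liver. Liver was the lower tissue in every wild-type library and the higher one in every labelled knockout library. The tissue difference went from 0.65 to -1.43 (log2 difference -2.08 ± 0.22, adjusted p = 1.89e-05), with a rise of 2.52 in liver and a kidney effect of 0.45 that was not called. Kcna2, a voltage-gated potassium channel subunit, stood at 4.12, 4.21, 4.52, 6.16 and 6.70 CPM in wild-type liver and at 0, 0, 0, 0.1045 and 0.205 in labelled knockout liver. In kidney it was low in both genotypes, at 0.130 to 0.3365 CPM in wild type and 0.1805 to 0.536 in the labelled knockout. Its tissue difference went from -4.64 to 2.21 (log2 difference 6.84 ± 0.76, adjusted p = 1.96e-05), but the kidney and liver libraries of the labelled knockout overlapped, so the second value rests on very few counts.

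Cyp2b10, the drug-inducible P450 gene of the CAR receptor, moved in opposite directions in the 2 tissues, at low levels. It stood at 1.99, 2.21, 2.39, 4.88 and 8.13 CPM in wild-type liver against 0, 0.09205, 0.1025, 0.157 and 0.293 in labelled knockout liver, and at 0, 0, 0.0193, 0.0241 and 0.04145 in wild-type kidney against 0.05645, 0.428, 0.494, 1.35 and 2.62 in labelled knockout kidney. Both genotype effects were called, at 5.62 in kidney and -4.95 in liver (log2 difference 10.57 ± 1.24, adjusted p = 3.55e-05). In the labelled knockout the kidney libraries overlapped those of liver. Igha, the constant region of immunoglobulin A, which was picked for this text after its values were seen, stood at 7.86 to 13.7 CPM in wild-type kidney and 14.5 to 39.9 in wild-type liver, and at 7.95 to 34.7 and 1.75 to 6.92 in labelled knockout kidney and liver. Its difference was 3.15 (adjusted p = 0.00232), with a called liver effect of -2.25. The Riken gene 4930452B06Rik fell in liver from 6.39 to 0.318 CPM on average, while kidney was at 2.12 and 2.13 CPM (log2 difference 4.33 ± 0.48, adjusted p = 1.96e-05).

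Of the other inverted genes, Arhgef10 and Pcolce2 were called in all 20 fits with 1 library left out. Arhgef10, a guanine nucleotide exchange factor, went from 1.45 to -0.93, and Pcolce2, a procollagen processing enhancer, from -1.31 to 1.83. The N-methyltransferase gene Inmt, with 2043 CPM in wild-type liver and 508 in labelled knockout liver, went from -1.50 to 1.14 (log2 difference 2.63 ± 0.62, adjusted p = 0.0334). Lrrc28 went from -0.76 to 0.64, Adam11 from -1.46 to 1.56, the immediate early gene Ier5 from 0.62 to -0.48, and the ceramide transporter gene Col4a3bp from -0.47 to 0.37. With 1 library left out at a time (20 fits), Inmt and Adam11 each lost the call in 8, Ier5 in 9 and Col4a3bp in 10, while Lrrc28 lost it without wild-type liver 6 alone (adjusted p = 0.0501).

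Among the 21 lost genes the liver effect was called lower in 8 and higher in 7. Cyp2b9, a female-biased P450 gene (mm10 chromosome 7, 26173411 to 26210661), stood at 13.45, 16.95, 45.5, 53.25 and 192 CPM in wild-type liver and at 0, 0.09755, 0.154, 0.184 and 0.5225 in labelled knockout liver. The kidneys were at 0 to 0.290 CPM in wild type and 0.198 to 0.659 in the labelled knockout, so labelled knockout liver came down into the range of kidney. The tissue difference went from -8.58 to 0.93 (log2 difference 9.51 ± 1.23, adjusted p = 0.000103). Slc22a27, an organic anion transporter of the same family as Slc22a26, showed a like pattern, with 2.91, 3.13, 3.98, 8.72 and 26.9 CPM in wild-type liver, 0.0488, 0.0731, 0.09205, 0.205 and 0.470 in labelled knockout liver and 0.113 to 0.241 in labelled knockout kidney (log2 difference 4.66 ± 0.96, adjusted p = 0.0113). Of its 50-base windows 30.5% occur in other genes, so its counts are uncertain. It lost the call without labelled knockout livers 4 and 5, and also with limma voom.

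Mycl, Kdsr and Acss2 lost their liver excess through liver, and Cadm1 through kidney. Mycl, a MYC family transcription factor gene, fell from 10.1 to 3.04 CPM in liver (log2 difference 2.61 ± 0.46, adjusted p = 0.0026), and Kdsr, which encodes a reductase of sphingolipid synthesis, from 30.98 to 16.3 (log2 difference 1.33 ± 0.25, adjusted p = 0.00578). Acss2, which makes acetyl-CoA from acetate, fell from 354 to 145 (log2 difference 1.63 ± 0.33, adjusted p = 0.0107), and lost this call without labelled knockout livers 4 and 5. Its wild-type kidneys, at 93.8 to 202 CPM, all lay below the wild-type livers, at 245 to 637. Its labelled knockout kidneys, at 196 to 224 CPM, all lay above the labelled knockout livers, at 114 to 168. That labelled knockout tissue difference, 0.51, was not called (adjusted p = 0.0662). Cadm1, a cell adhesion gene, stood at 5.89, 6.56, 8.32, 8.75 and 9.45 CPM in wild-type kidney, 14.5, 17.2, 18.02, 20.1 and 25.6 in labelled knockout kidney, 15.7, 16.55, 17.4, 17.5 and 17.85 in wild-type liver and 15.2, 16.7, 17.1, 18.4 and 20.97 in labelled knockout liver. All labelled knockout kidneys lay above all wild-type kidneys, and their range overlapped that of the livers and reached past it at both ends. The rise was 1.29 in kidney (adjusted p = 6.5e-05), the liver effect was 0.06, and the tissue difference went from -1.12 to 0.11 (log2 difference 1.23 ± 0.22, adjusted p = 0.00337).

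The 6 lost kidney-high genes named here rose in liver. Serpine2, an inhibitor of thrombin and other serine proteases, stood at 9.78, 14.2, 17.6, 19.5 and 22.9 CPM in wild-type kidney and 1.17, 1.40, 1.41, 1.87 and 2.33 in wild-type liver, and at 8.06, 8.98, 9.87, 11.2 and 14.2 and 7.26, 7.42, 13.9, 19.8 and 20.2 in labelled knockout kidney and liver. The wild-type tissues were far apart, and those of the labelled knockout overlapped (log2 difference -3.74 ± 0.42, adjusted p = 1.96e-05). Cx3cr1, the fractalkine receptor of mononuclear phagocytes, stood at 3.76, 3.997, 4.31, 4.56 and 5.32 CPM in wild-type kidney, 0.391, 0.858, 0.986, 1.21 and 1.58 in wild-type liver, 1.98, 2.29, 2.53, 2.86 and 4.40 in labelled knockout kidney and 2.77, 3.43, 4.17, 4.60 and 5.76 in labelled knockout liver (log2 difference -2.69 ± 0.41, adjusted p = 0.000683). Its liver libraries did not overlap between genotypes. Kupffer cell markers (8 genes) summed to between 283.6 and 449.5 CPM in wild-type liver and between 420.6 and 644 in labelled knockout liver, while macrophage markers (12 genes) summed to between 282.8 and 415.5 and between 185 and 322. Among the 8 Kupffer cell markers, 4 were called lower in liver (2.86% of all genes) and 1, C6, higher (1.53%). C6 is also on the list of male-biased liver genes. The median liver effect of the 8 was -0.98, and most called members went against the sum. None of the 12 macrophage markers was called in liver. No member of either list was at 0 in liver, and their part in the Cx3cr1 result was not tested.

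The other named lost kidney-high genes moved alike. Abcb1b, which encodes a P-glycoprotein drug exporter, rose in liver from 0.819 to 4.46 CPM, against 3.98 CPM in labelled knockout kidney (log2 difference -2.55 ± 0.41, adjusted p = 0.00125). The adhesion gene Cadm4 rose from 4.89 to 17.9 CPM in liver, against 16.7 in labelled knockout kidney (log2 difference -2.54 ± 0.44, adjusted p = 0.00232). The homeobox gene Pknox2 had called effects of -1.37 in kidney and 1.74 in liver, and its labelled knockout tissues overlapped at 0.522 to 1.64 and 0.460 to 1.755 CPM (log2 difference -3.10 ± 0.53, adjusted p = 0.00227). The chemokine gene Cxcl14 stood at 1.54, 1.61, 2.195, 8.08 and 25.02 CPM in labelled knockout liver, where replicate 5 was the highest, against 0.217 to 1.165 in wild-type liver (log2 difference -4.68 ± 0.88, adjusted p = 0.00511).

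**Figure D3:**
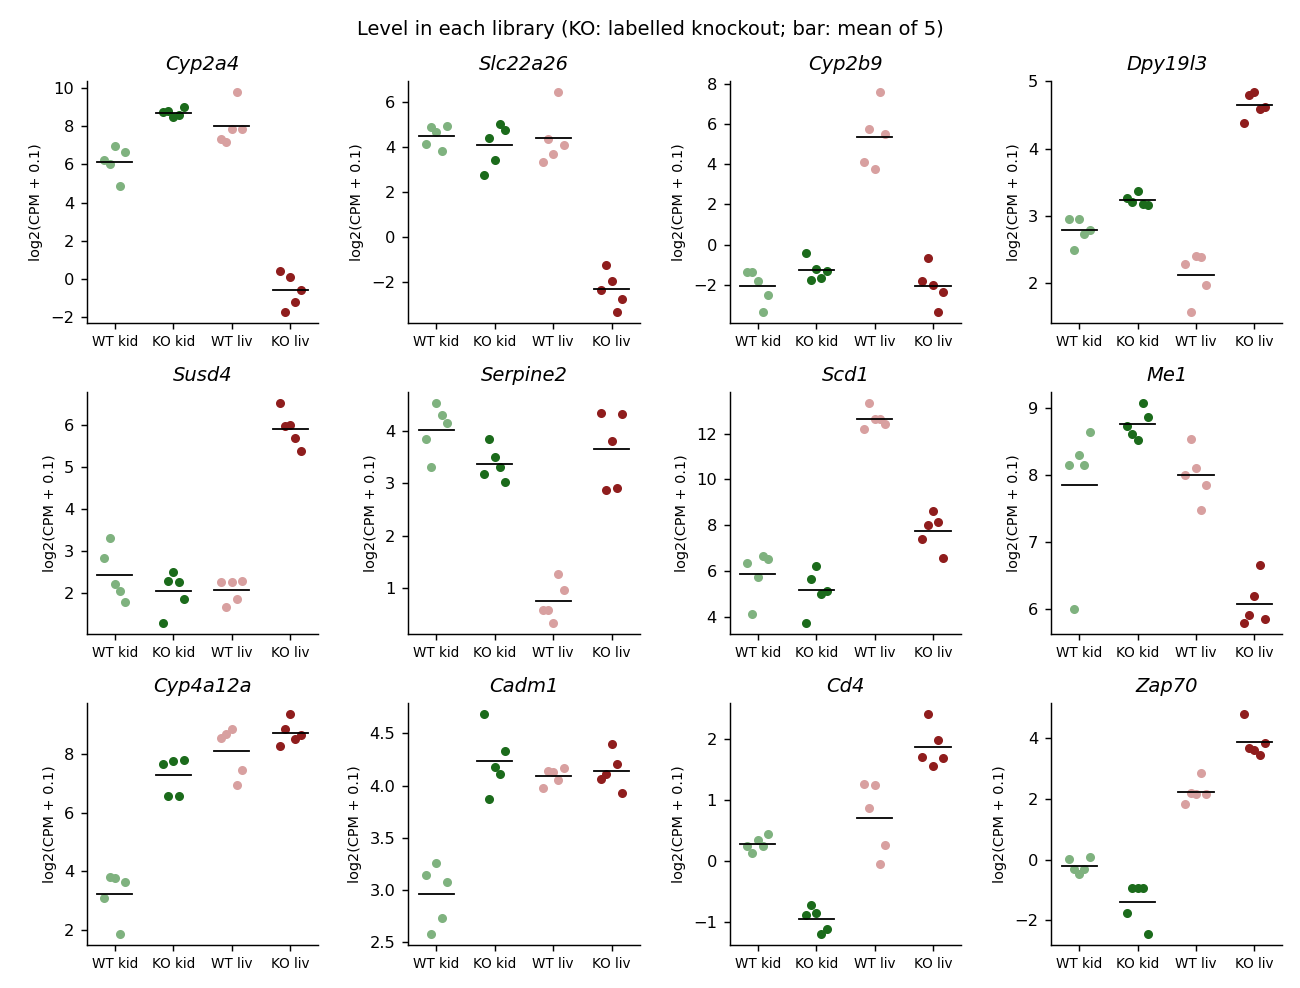
Points give log2(CPM + 0.1) of 12 genes in each of the 20 libraries, with bars at the group means; WT is wild type and KO the labelled knockout. Cyp2a4 changes its order between tissues, Cyp2b9 and Serpine2 end with labelled knockout tissues that overlap, and Cadm1 and Cyp4a12a differ by genotype in kidney and overlap in liver.

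Gained differences were not called and under 1 in wild type, and called at a size of at least 1 in the labelled knockout. Susd4, which encodes a membrane regulator of complement, stood at 3.39, 4.05, 4.56, 7.03 and 9.82 CPM in wild-type kidney and 3.07, 3.56, 4.71, 4.73 and 4.82 in wild-type liver, which overlapped. In the labelled knockout it stood at 2.36, 3.54, 4.71, 4.77 and 5.625 in kidney and 41.6, 51.8, 63.1, 63.97 and 92.15 in liver, with every liver far above every kidney. The liver rise was 3.90, the kidney effect -0.45 was not called, and the tissue difference went from 0.46 to -3.90 (log2 difference -4.35 ± 0.40, adjusted p = 2.15e-06). Slc22a26, an organic anion transporter, went the other way through a loss in liver. It stood at 13.8, 17.2, 25.3, 29.7 and 30.2 CPM in wild-type kidney, 6.53, 10.4, 21.03, 26.7 and 31.9 in labelled knockout kidney, 9.86, 12.8, 16.9, 20.5 and 86 in wild-type liver and 0, 0.0488, 0.09205, 0.154 and 0.3135 in labelled knockout liver (log2 difference 7.70 ± 0.95, adjusted p = 5.96e-05). The kidneys overlapped between genotypes, and no labelled knockout liver reached 1 CPM.

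Me1, G6pdx, Rnf145, Fmo4 and Cyp7b1 gained a tissue difference as well. Me1, the cytosolic malic enzyme that yields NADPH, was at 63.96 to 398 CPM in wild-type kidney and 178 to 372 in wild-type liver, then at 367 to 538 in labelled knockout kidney and 55.3 to 100.4 in labelled knockout liver (log2 difference 2.62 ± 0.44, adjusted p = 0.00225). G6pdx, the entry enzyme of the pentose phosphate pathway, went from 18.6 to 5.72 CPM in liver and stood at 24.6 and 32.1 CPM in kidney (log2 difference 2.09 ± 0.39, adjusted p = 0.00532). Both fell in liver and were not called in kidney. Rnf145, an LXR target that encodes a ubiquitin ligase with a sterol-sensing domain, stood at 43.4, 50.5, 54.1, 63.8 and 65.6 CPM in wild-type kidney, 59.5, 82.3, 89.04, 94.3 and 108 in labelled knockout kidney, 30.8, 38.2, 52.04, 54.8 and 55.1 in wild-type liver and 12.7, 15.8, 18.8, 20.2 and 21.8 in labelled knockout liver. The wild-type tissues overlapped, and every labelled knockout kidney lay above every labelled knockout liver (log2 difference 2.02 ± 0.27, adjusted p = 0.000195). Fmo4, a flavin monooxygenase gene, fell from 19.6 to 8.51 CPM in liver and was not called in kidney (log2 difference 1.52 ± 0.26, adjusted p = 0.00205). Cyp7b1, the oxysterol 7-hydroxylase, rose in both tissues, by 1.58 in kidney and 4.06 in liver, and its labelled knockout livers stood at 758 to 1112 CPM against 101 to 312 in the kidneys. Its difference lay near the threshold (log2 difference -2.48 ± 0.63, adjusted p = 0.0475) and was not called in 16 of the 20 fits without 1 library, nor by voom or by limma-trend on the log2 FPKM table.

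Of 19 female-biased liver genes, 12 were tested and 7 called (58.3% of those tested, against 1.51% of all genes tested), all with the genotype effect higher in kidney than in liver, with a median difference of 4.06 beside -0.04 over all genes tested. The median effect was -4.03 in liver and 0.12 in kidney. Among them were Cyp2a4, Cyp2b9, Cyp2b10, Cyp2c69, Hao2 and the peroxisomal transporter gene Abcd2. Members that could be tested had to pass the filter in some group, so the count says nothing of the 7 that did not. The other 5 tested, which were not called, included Prlr (-2.10, adjusted p = 0.126) and Cux2 (-0.71). Cyp3a16 had a group without counts, and setting it at its floor left the median at 4.06.

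Cyp2c69 and Hao2 show the range within this list. Cyp2c69 stood at 99.45, 102, 120.2, 174 and 231 CPM in wild-type liver and 2.24, 5.34, 5.43, 7.996 and 8.67 in labelled knockout liver, and at 0.695 to 2.09 and 0.586 to 2.33 in the kidneys of both genotypes (log2 difference 4.89 ± 0.56, adjusted p = 2.4e-05). It shares 54.8% of its 50-base windows with other genes, mostly Cyp2c40, which was called too (liver effect -4.04), so the 2 cannot be taken as separate measurements. Hao2, a peroxisomal hydroxy acid oxidase, was a kidney-high gene whose tissue difference widened from 3.01 to 10.83. It fell in liver from 3.60, 5.175, 5.83, 18.5 and 45.7 to 0, 0.0460, 0.05225, 0.09755 and 0.1025 CPM and was at 38.6 to 194 and 81.5 to 145 CPM in the kidneys (log2 difference 7.82 ± 1.08, adjusted p = 0.000233). Wild-type liver 5 held the highest value of its group for Cyp2a4, Cyp2b9, Cyp2b10, Cyp2c69, Hao2, Slc22a26 and Slc22a27. Without it all 7 kept the call, with differences between 3.70 for Slc22a27 and 10.59 for Cyp2a4. With the log2 FPKM table and limma, 3 of the list were called. That table leaves out genes with no count in some library, as Cyp2b9, Cyp2b10 and Hao2 have.

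The 250 bases before the RefSeq start of 2 of these genes (build GRCm38.p6) are shown because Cyp2a4 inverted and Cyp2b9 lost its tissue difference. Capitals mark the nuclear receptor half-site AGGTCA, read on both strands, and the end of the Cyp2a4 window overlaps the start of the gene as the count table gives it.
Cyp2a4, chr7:26306942-26307191, plus strand: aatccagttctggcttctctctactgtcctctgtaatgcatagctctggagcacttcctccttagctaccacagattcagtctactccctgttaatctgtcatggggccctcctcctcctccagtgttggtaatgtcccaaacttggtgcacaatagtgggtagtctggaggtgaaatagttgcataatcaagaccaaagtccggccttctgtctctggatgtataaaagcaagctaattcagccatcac
Cyp2b9, chr7:26173159-26173408, plus strand: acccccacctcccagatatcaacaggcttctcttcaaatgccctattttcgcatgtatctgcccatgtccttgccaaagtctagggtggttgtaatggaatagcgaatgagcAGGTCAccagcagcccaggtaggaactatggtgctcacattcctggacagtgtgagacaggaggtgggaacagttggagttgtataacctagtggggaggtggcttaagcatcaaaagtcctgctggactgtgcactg
Of the 7 called genes 5 matched a RefSeq window, and 1 of these 5 windows held AGGTCA (20%, against 14.0% of all 32851 windows). None held CCAAT (33.8% of all windows) or the STAT5 motif TTCNNNGAA (7.02%), each read on both strands. A match is a description of the letters, and says nothing of binding.

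Male-biased liver genes were called in both directions. Of 16 tested, 3 were called (18.8%), 1 higher (Cyp4a12a) and 2 lower (Nat8 and Cyp7b1). In each tissue by itself 7 of the 16 were higher in the labelled knockout (1.49% of all genes in kidney and 1.53% in liver) and none was lower, with a median effect of 0.72 in kidney and 1.15 in liver. The median difference was -1.40, and -0.84 with the 5 members that had a group without counts set at their floor. Cyp4a12a, a fatty acid hydroxylase of male kidney and liver, stood at 3.57, 8.48, 12.5, 13.5 and 13.9 CPM in wild-type kidney and 95.6, 95.7, 202, 218 and 222 in labelled knockout kidney, and at 122, 174, 372, 414 and 466 in wild-type liver and 307, 367, 400.2, 459 and 652 in labelled knockout liver. The kidneys of the genotypes were apart and the livers overlapped (log2 difference 3.51 ± 0.54, adjusted p = 0.000809, kidney effect 4.01, liver effect 0.50). Of its 50-base windows 48.9% also occur in Cyp4a12b. Cyp4a12b was not called for the difference (1.09, adjusted p = 0.359), but its kidney effect of 1.89 was called (adjusted p = 0.00535). Nat8, an N-acetyltransferase of mercapturic acid formation, stood at 36.1, 123, 159.7, 189 and 222 CPM in wild-type kidney, 266, 271, 319, 338 and 430.2 in labelled knockout kidney, 1.34, 1.59, 1.70, 1.81 and 2.56 in wild-type liver and 26.3, 26.45, 31.5, 35.1 and 40.8 in labelled knockout liver. It rose in both tissues and more so in liver, by 4.15 against 1.16 (log2 difference -3.00 ± 0.45, adjusted p = 0.000552). Proximal tubule markers summed to between 23120 and 43120 CPM in wild-type kidney and between 47140 and 56690 in labelled knockout kidney, with none of the 13 at 0 there and none called for the difference. By genotype effect, 2 of the 13 were called higher in kidney (1.49% of all genes) and none lower. The part of these markers in the kidney effects above was not tested.

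Fatty acid and triglyceride synthesis was covered by 25 genes, all tested, of which 10 were called (40.0%, against 1.51% of all genes tested). The tissue difference narrowed in 8 of the 10, was lost in 1, Acss2, and was gained in 1, Me1. All 10 had the kidney effect above the liver effect, with a median over the 25 of 1.35. The median effect was -0.91 in liver and 0.21 in kidney. In liver 12 were lower in the labelled knockout (2.86% of all genes) and none higher, and in kidney 1 was higher, Acaca. This gene, the acetyl-CoA carboxylase of the first committed step, stood at 11.1, 11.2, 11.9, 12.2 and 14.7 CPM in wild-type kidney and 15.9, 17.2, 17.95, 19.4 and 24.5 in labelled knockout kidney, and at 116, 154, 174, 188 and 204 in wild-type liver and 59.3, 60.7, 60.9, 65 and 75.01 in labelled knockout liver. No groups overlapped, and the effects had opposite signs, 0.63 in kidney and -1.38 in liver, both called (log2 difference 2.02 ± 0.22, adjusted p = 1.89e-05). The tissue difference narrowed from -3.77 to -1.76.

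Scd1, the stearoyl-CoA desaturase, had the most negative liver effect of the list, -4.78. It stood at 4673, 5498, 6301, 6364 and 10260 CPM in wild-type liver and 96.1, 170.1, 256, 283 and 396 in labelled knockout liver, and at 17.45, 53.2, 80.98, 91.5 and 100 and 13.3, 32.1, 35, 50.9 and 73.9 in wild-type and labelled knockout kidney. The kidneys overlapped, and every labelled knockout liver lay above every labelled knockout kidney (log2 difference 4.04 ± 0.64, adjusted p = 0.00105), so the tissue difference narrowed from -6.59 to -2.55. Fasn, the fatty acid synthase, stood at 601, 1264, 1270, 1428 and 1571 CPM in wild-type liver, 196, 206, 370.2, 466 and 487 in labelled knockout liver and 24.95 to 72.8 and 37.3 to 65.5 in the kidneys (log2 difference 2.07 ± 0.46, adjusted p = 0.0211). The elongase Elovl5 stood at 432, 450.0, 452, 626 and 1015 and 119, 128, 133, 140.4 and 141 CPM in the 2 groups of livers (log2 difference 2.08 ± 0.36, adjusted p = 0.00244). The citrate lyase gene Acly (1.79), the elongase gene Elovl6 (1.34), the lipogenic regulator gene Thrsp (4.15) and the lipase gene Pnpla3 (4.04) were called in the same direction. Srebf1, the transcription factor of this pathway, had a called liver effect of -1.16, but its difference missed the threshold (log2 difference 1.32 ± 0.35, adjusted p = 0.0592). The count of called members was 8 to 11 in the fits without 1 library and 15 with voom.

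The windows of Fasn and Elovl5 are shown because they hold the CCAAT box, the site of NF-Y, more than once. Capitals mark CCAAT or its reverse complement ATTGG.
Fasn, chr11:120824548-120824797, minus strand: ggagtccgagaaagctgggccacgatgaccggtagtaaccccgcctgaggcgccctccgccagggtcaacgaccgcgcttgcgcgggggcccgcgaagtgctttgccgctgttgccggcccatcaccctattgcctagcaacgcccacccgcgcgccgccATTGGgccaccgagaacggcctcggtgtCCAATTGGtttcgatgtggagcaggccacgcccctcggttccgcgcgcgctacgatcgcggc
Elovl5, chr9:77917115-77917364, plus strand: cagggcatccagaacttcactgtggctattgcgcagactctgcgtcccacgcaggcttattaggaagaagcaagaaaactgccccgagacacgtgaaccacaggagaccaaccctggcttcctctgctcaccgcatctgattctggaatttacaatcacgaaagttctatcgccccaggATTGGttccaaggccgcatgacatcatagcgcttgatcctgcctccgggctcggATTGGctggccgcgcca
Of the 10 called genes of this list 9 matched RefSeq, with 10 windows. CCAAT was in 6 of these 10 windows (60.0%, against 33.8% of all windows) and AGGTCA in 2 (20%, against 14.0%). None held TTCNNNGAA.

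Of 20 LXR targets, all tested, 4 were called (20%, against 1.51% of all genes tested) and all 4 were higher, namely Rnf145, Scd1, Lpl and Pltp. The count was 7 with DESeq2 and 8 with voom. Each of the 4 fell in liver and was not called in kidney. The median difference over the 20 was 0.21. Pltp, the phospholipid transfer protein gene, stood at 38.2, 80.5, 82.8, 84.9 and 139 CPM in wild-type liver, 5.57, 7.945, 8.10, 8.81 and 9.41 in labelled knockout liver, 1.54 to 5.99 in wild-type kidney and 1.28 to 3.07 in labelled knockout kidney (log2 difference 2.51 ± 0.47, adjusted p = 0.0046). Lpl, the lipoprotein lipase gene, is kidney-high, and its tissue difference widened from 2.60 to 5.42. It stood at 115, 118, 134, 214 and 218 CPM in wild-type liver and 15.8, 18.15, 21.3, 37.6 and 53.2 in labelled knockout liver, while kidney ranged over 565 to 1485 in wild type and 815 to 1988 in the labelled knockout (log2 difference 2.81 ± 0.50, adjusted p = 0.00337). The sterol exporters Abca1 (-0.04, adjusted p = 0.966) and Abcg5 (-0.77, adjusted p = 0.553) were not called. Cd5l went from 82.8 to 156 CPM in wild-type liver to 0.09205 to 0.658 in labelled knockout liver, but it had only 2 counts in each group of kidneys, and its difference was not called (adjusted p = 0.0793).

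**Figure D4:**
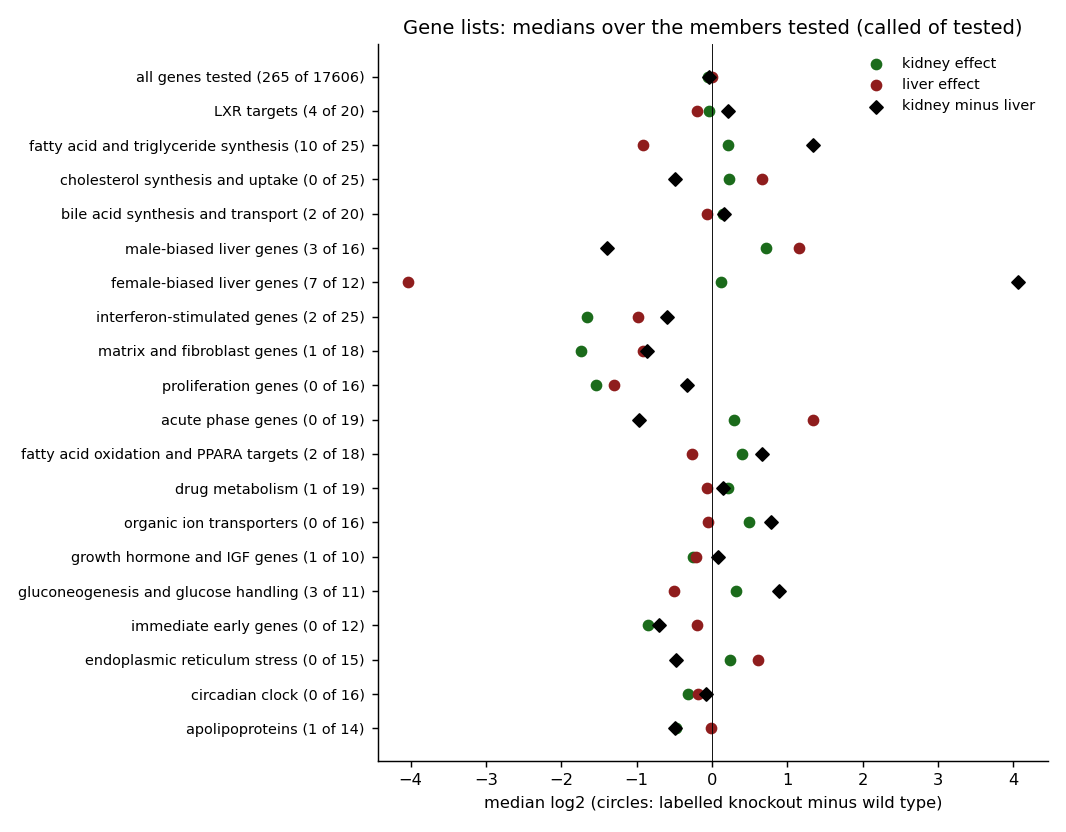
Each line is a gene list, with the number called of those tested in brackets; circles give the median log2 genotype effect in kidney (green) and liver (red), and diamonds the median tissue-by-genotype difference. Female-biased genes (median 4.06) and fatty acid synthesis genes (1.35) lie furthest to the right, and male-biased genes (-1.40) furthest to the left. With the 5 male-biased members that have a group without counts at their floor, that median is -0.84 and acute phase genes (-0.97) lie further left.

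Other metabolic lists are given beside the 1.51% called over all genes tested. In glucose handling 3 of 11 were called (27.3%), all higher: G6pdx, the pyruvate kinase gene Pklr (2.04, adjusted p = 0.0326) and the fructokinase gene Khk (1.33, adjusted p = 0.032). Leaving out 1 library at a time (20 fits) cost Pklr the call in 12 and Khk in 10. In fatty acid oxidation 2 of 18 were called (11.1%), among them Cyp4a10 (2.79), which lost it in 13. In bile acid synthesis and transport 2 of 20 were called (10%). They were Cyp7b1 and Slc10a1, the bile acid uptake carrier of hepatocytes, which fell in liver from 1123 to 553 CPM (log2 difference 1.81 ± 0.33, adjusted p = 0.00375). None of 25 genes of cholesterol synthesis and uptake was called, with a median of -0.49. By genotype effect, 9 of the 25 were higher in labelled knockout liver (1.53% of all genes), and none was called in kidney. None was called among 16 organic ion transporters (median 0.78), 19 acute phase genes (-0.97), 15 endoplasmic reticulum stress genes (-0.48), 16 clock genes (-0.08), 12 immediate early genes (-0.70) or 16 proliferation genes (-0.33). These counts cover the members of each list alone. The called transporter genes Slc22a26 and Slc22a27 and the called immediate early gene Ier5 are not members.

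In 57 of the 265 genes the genotype effect was called in kidney alone. Apoh, which encodes the plasma glycoprotein beta-2-glycoprotein I, stood at 0.989, 1.45, 1.64, 2.53 and 2.63 CPM in wild-type kidney and 7.06, 11.2, 11.3, 15.6 and 20.8 in labelled knockout kidney, against 2243 to 2940 and 2359 to 2835 in the livers (log2 difference 2.81 ± 0.38, adjusted p = 0.0002). The kidneys of the genotypes did not overlap and the livers did. Hepatocyte markers summed to between 85.3 and 384 CPM in wild-type kidney and between 275 and 638 in labelled knockout kidney. Of the 15, 1 was called higher in kidney (1.49% of all genes) and none was called for the difference. Cps1 and Tat were at 0 counts in labelled knockout kidney. Alb, one of them, averaged 3.60 CPM in wild-type and 3.70 in labelled knockout kidney. Igf1, the growth factor that liver secretes, fell in kidney (range 11.1 to 30.1 CPM in wild type and 3.71 to 9.43 in the labelled knockout), with 683 to 984 and 704 to 987 in the livers (log2 difference -1.62 ± 0.36, adjusted p = 0.02). Fn1, which encodes fibronectin, fell in kidney (range 23.65 to 103 CPM in wild type and 10.7 to 15.5 in the labelled knockout), with liver at 1047 to 1599 and 1062 to 2018 (log2 difference -2.04 ± 0.42, adjusted p = 0.0119), a call that was lost without labelled knockout livers 4 and 5.

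Many interferon-stimulated and matrix genes fell in each tissue. Among the interferon-stimulated genes, 23 of 25 fell in kidney (3.90% of all genes) and 15 of 25 in liver (2.86%), with median effects of -1.65 and -0.98, and 2 were called for the difference (8.0%, against 1.51% of all genes tested), both lower. Mx2, of the family of interferon-induced GTPase genes, has the biotype of a polymorphic pseudogene in the count table. It stood at 1.28, 1.68, 1.96, 2.12 and 4.89 CPM in wild-type kidney, 0.301, 0.474, 0.581, 0.631 and 0.847 in labelled knockout kidney, 7.15, 7.745, 8.25, 8.40 and 12.7 in wild-type liver and 7.68, 8.055, 10.2, 11.02 and 12.1 in labelled knockout liver. The kidneys were apart and the livers overlapped (log2 difference -2.19 ± 0.43, adjusted p = 0.0084). Oasl1 was called as well (log2 difference -1.19 ± 0.28, adjusted p = 0.0347) but kept that call in 8 of 20 fits with 1 library left out. The list's count was 1 to 6 over these fits. Of 18 matrix genes, 15 were lower in kidney and 7 in liver, and Fn1 alone was called for the difference (5.56%). Endothelial markers (10 genes, none at 0 in any group) summed to between 399 and 769 CPM in wild-type kidney and between 190.5 and 422 in labelled knockout kidney. In kidney 3 of the 10 were called lower (3.90% of all genes) and none higher. The part of these markers in the kidney effects above was not tested.

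Of 154 genes with the effect called in both tissues, 136 had the same sign and 18 the opposite sign, and all 18 were among the 265. Besides Cyp2a4, Acaca, Cyp2b10 and Pknox2 they included the T-cell genes Cd4 and Zap70. Cd4 stood at 0.995, 1.08, 1.085, 1.16 and 1.25 CPM in wild-type kidney and 0.336, 0.3625, 0.439, 0.451 and 0.508 in labelled knockout kidney, and at 0.858, 1.09, 1.72, 2.26 and 2.28 in wild-type liver and 2.82, 3.12, 3.13, 3.84 and 5.17 in labelled knockout liver. It fell in kidney and rose in liver without overlap between genotypes (log2 difference -2.55 ± 0.39, adjusted p = 0.000713). Zap70, a kinase of the T-cell receptor, stood at 0.612, 0.699, 0.705, 0.9075 and 0.965 and 0.0837, 0.192, 0.421, 0.423 and 0.428 CPM in wild-type and labelled knockout kidney, and at 3.45, 4.34, 4.365, 4.52 and 7.07 and 10.75, 12.1, 12.7, 14.15 and 27.4 in wild-type and labelled knockout liver (log2 difference -3.03 ± 0.46, adjusted p = 0.000723). The other lymphocyte markers did not follow Cd4 in liver. Of 11 markers, 8 were lower in kidney (3.90% of all genes). In liver 4 were lower (2.86%) and Cd4 alone was higher (1.53%). The list summed to between 27.3 and 34.5 CPM in wild-type kidney, 7.59 and 19.9 in labelled knockout kidney, 25.4 and 30.4 in wild-type liver and 15.3 and 21.6 in labelled knockout liver, with none at 0. The part of lymphocyte number in the kidney values was not tested.

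Dct, Aqp8 and Gm13522, also among the 18, had fewer than 1 CPM in every kidney. Dct, the dopachrome tautomerase of melanin synthesis, stood at 0.923, 1.48, 2.08, 3.16 and 3.35 CPM in wild-type liver and 10.3, 10.6, 13.4, 15.9 and 26.2 in labelled knockout liver, and at 0.0521 to 0.166 and 0 to 0.0306 in the kidneys (log2 difference -6.26 ± 0.91, adjusted p = 0.000413). Aqp8, a water and peroxide channel, fell in liver from 216 to 85.4 CPM and rose in kidney from 0.278 to 0.733 (log2 difference 2.69 ± 0.46, adjusted p = 0.00225). Aqp8 was not called for the difference with limma voom. Gm13522, a gene model of antisense biotype without a named function, rose in liver from 5.57 to 11.2 CPM. It had no count in labelled knockout kidney, at least 6.13-fold lower than wild-type kidney by a floor of 3 counts over the group. The use of strand in counting is not known, so reads from the other strand cannot be told apart from its own. Ppp1r14a, an inhibitor of myosin phosphatase, fell in kidney from 4.36 to 1.945 CPM and rose in liver from 3.94 to 13.1 (log2 difference -2.89 ± 0.45, adjusted p = 0.000867).

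**Figure D5:**
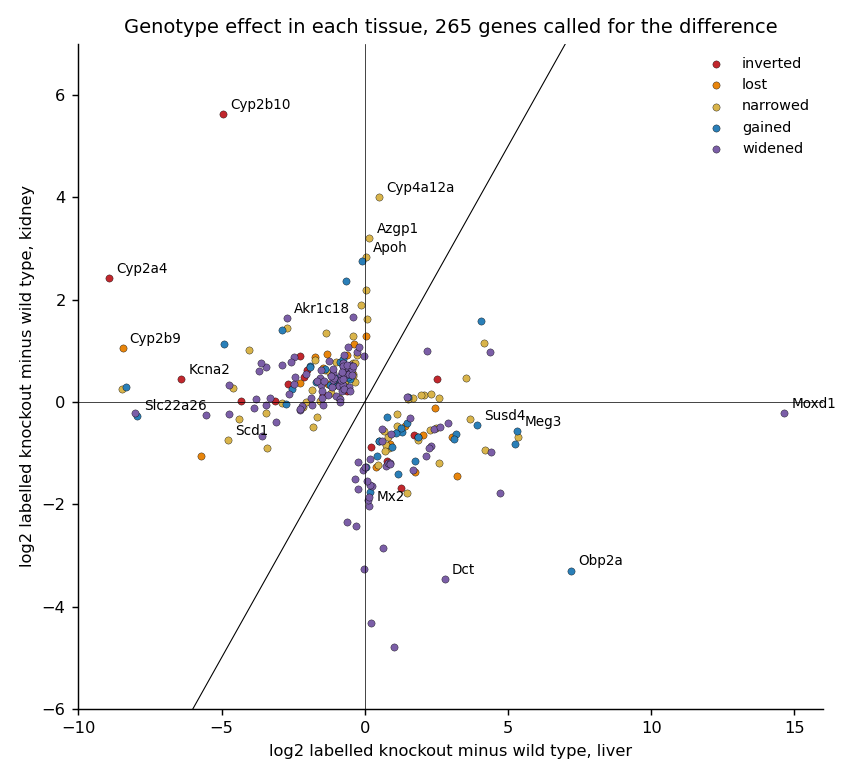
Points are the 265 called genes, with the log2 genotype effect in liver on the x axis and in kidney on the y axis; the diagonal marks equal effects. Most points lie near the horizontal line of no kidney effect, Cyp4a12a, Azgp1 and Apoh lie near the vertical line of no liver effect, and Cyp2a4, Cyp2b10 and Dct lie in the quadrants of opposite signs.

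The most negative difference was that of Moxd1. Moxd1, a copper-dependent monooxygenase gene, had no count in wild-type liver and 10.5, 49.6, 70.5, 190.2 and 225 CPM in labelled knockout liver, at least 4320-fold higher by a floor of 3 counts over the group. The kidneys were at 0 to 0.169 and 0 to 0.226 CPM. The homeobox gene Irx1 rose in liver (range 0 to 0.0903 CPM in wild type and 0.679 to 2.99 in the labelled knockout), so that its wide kidney excess narrowed from 9.40 to 3.35 (log2 difference -6.04 ± 0.85, adjusted p = 0.000307). The scavenger receptor gene Scara5 stood at 0.486 to 9.12 CPM in wild-type and 9.11 to 54.6 in labelled knockout liver (log2 difference -3.84 ± 0.78, adjusted p = 0.0108), a call lost without labelled knockout livers 4 and 5. Obp2a, a lipocalin gene, stood at 2.01, 2.51, 5.52, 6.51 and 11.2 CPM in labelled knockout liver, had 1 library above 0 in wild-type liver and no count in labelled knockout kidney. It lost the call without wild-type kidney 5 (adjusted p = 0.0789) and without wild-type kidneys 1 and 3. The eosinophil chemokine receptor gene Ccr3 (4.32 to 5.95 CPM in labelled knockout liver, 0.106 to 0.368 in wild type), the langerin gene Cd207 (13.4 to 24.3 and 0.542 to 1.165) and Prr18 (0.658 to 1.61 and 0.0704 to 0.174) showed the same order. Ccr3 was not called in 16, and Cd207 in 9, of 20 fits with 1 library left out. Trpm3 had no count in wild-type liver, and St8sia6 and Tmem117 had none in labelled knockout liver. Each of these 3 lost the call in at least 16 of the 20 fits without 1 library.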

How the data were processed

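RNA of 20 libraries (kidney and liver, 5 per genotype and tissue) was measured by RNA-seq. The deposited table holds raw counts per gene as whole numbers, per the file headers and values, with positions, lengths and biotypes. A second table deposited by the authors holds log2 FPKM values, used in 1 alternative. HISAT2 2.0.5, StringTie, DESeq2 1.16.1 and build mm10 are named in the submitters' processing notes with no role. The counting tool and the use of strand are not given in the sources used here, so genes that overlap on opposite strands cannot be told apart. No column of the tables was left out.

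Counts were fitted with edgeR 4.0.16 in R 4.3.3 (filterByExpr with a minimum count of 10, TMM, quasi-likelihood F test, Benjamini-Hochberg adjustment over the 17606 genes tested, called under 0.05). The tissue differences and genotype effects are contrasts of this fit. They share libraries, so the tissue difference of wild type and the tissue-by-genotype difference are not independent. The labels do not say that the samples of a group came from separate mice, and p-values measure the spread between these samples. Standard errors were computed from the log2 value and its F statistic. Where a group had no count, a floor of 3 counts over the group was used. Alternatives were DESeq2 1.42.0, limma 3.58.1 (voom, and limma-trend on log2 FPKM), other scalings, filters and gene sets, and fits without libraries. The scripts were tested on simulated data. Shared sequence is the share of 50-base windows of a gene's longest coding GENCODE transcript that stand in another gene's transcripts. Promoter windows are RefSeq's, build GRCm38.p6.

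The 19 pathway and 13 marker lists (440 symbols, all in the table), the comparison itself and the alternatives were chosen with earlier results of these data known. Named genes were Nr1h3 and Nr1h2, the 12 highest and 12 lowest called protein-coding genes by log2 difference with a mean of at least 1 CPM in some group, the 12 inverted genes and the 6 lost kidney-high, 6 lost liver-high and 6 gained genes of smallest p, the 10 of smallest p with opposite effects in the tissues, and up to 4 members of each list described. Igha, the values of C6, Cyp2a5, Cyp3a16, Cyp4a12b, Cps1, Tat, Cux2, Prlr, Cd5l, Alb, Srebf1, Abca1, Abcg5, Fasn, Acly, Elovl6, Thrsp, Pnpla3 and Abcd2, and the genes in the closing observations were chosen after values were seen. Values of a few of these genes are left out here, and the genes still count in the totals of calls.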

Additional observations from a re-analysis of the deposited data

Results flagged for a closer look

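In 324 gene-by-group sets of 5 libraries, a highest or lowest library far from the other 4 (by Dixon's test) was found in 31 (9.57%). The cut-off flags about 1 in 20 by chance where values are independent and normally distributed. These were CPM of chosen genes, some near 0, so the share cannot be set against that rate. Wild-type liver 5 gave 5 of them, and labelled knockout liver 5 and wild-type kidney 3 gave 4 each. Wild-type liver 5 stood at 876 CPM for Cyp2a4, 192.5 for Cyp2b9, 86.0 for Slc22a26, 26.9 for Slc22a27 and 0.368 for Ccr3, all above the rest of their group. Labelled knockout liver 5 stood at 26.4 CPM for Cadm4, 25.0 for Cxcl14, 5.76 for Adam11 and 24.3 for Cd207. Wild-type kidney 3, the library with 50.8% mitochondrial counts, stood at 4.89 CPM for Mx2, 103 for Fn1, 54.0 for Pgd and 0.166 for Aqp8. Wild-type liver 6 stood at 2.22 CPM for Meg3 and 9.12 for Scara5.

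The other libraries had fewer such values. Labelled knockout kidney 1 stood at 0.659 CPM for Cyp2b9, 0.0549 for Cd207 and 1.29 for Trpm3, labelled knockout kidney 5 at 38.3 for Irx1 and 119 for Pgd, labelled knockout kidney 2 at 0.536 for Kcna2, labelled knockout kidney 3 at 1438 for Inmt and labelled knockout kidney 4 at 0.0306 for Dct. Labelled knockout liver 1 stood at 27.4 CPM for Zap70, and labelled knockout liver 3 at 15.6 for Fmo2 and 89.1 for Cyp4a10. Wild-type liver 1 stood at 12.7 CPM for Mx2, wild-type liver 3 at 637 for Acss2 and wild-type liver 4 at 0.174 for Obp2a. Wild-type kidney 1 stood at 0.0386 CPM for Ccr3 and wild-type kidney 4 at 0.122 for Cd207. The genotype effect itself differed between kidney and liver for 265 genes by the test of the difference, as described above.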

How the results depend on the processing

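No named gene changed the sign of its difference under any alternative in which it was tested. Effects within 1 tissue and the medians of the lists were not compared in this way. The median difference over all genes tested was -0.04 and did change sign, from -0.07 with TMM within each tissue to 0.02 with limma-trend. The number of calls, 265, went to 611 with the DESeq2 Wald test (263 of the 265 among them), 681 with limma voom (242 among them), 176 without TMM scaling (56.2% higher) and 176 without labelled knockout livers 4 and 5. It was within 1.5 times of 265 in the other settings that kept every library, with 206 for limma-trend on log2 FPKM and 327 with no filter beyond 1 count. Over the fits without 1 library it ran from 165 to 487, with 487 without wild-type kidney 6 (53.0% higher), 165 without labelled knockout kidney 4, 171 without wild-type liver 5 and 173 without wild-type liver 6. Of the 84 named genes, 20 lost the call without labelled knockout livers 4 and 5, 13 without TMM scaling, 10 without wild-type kidneys 1 and 3, and none with DESeq2. With limma voom 4 lost it, namely Aqp8, Slc22a27, Tmem117 and Cyp7b1. Inverted genes ran from 11 to 34 over these fits, lost from 13 to 52, narrowed from 37 to 103, gained from 28 to 93, widened from 71 to 205, and called interferon-stimulated genes from 1 to 6. With DESeq2 there were 31 inverted, 55 lost, 159 narrowed, 85 gained and 281 widened genes, 7 called LXR targets and 7 called interferon-stimulated genes. With voom these were 39, 57, 204, 72, 309, 8 and 4. Without TMM scaling 13 were lost, 39 narrowed and 26 gained, and 1 interferon-stimulated gene was called. With no filter beyond 1 count 28 were inverted and 32 lost, with a mean of at least 1 CPM 4 interferon-stimulated genes were called, and with limma-trend 11 were inverted and 3 female-biased genes called. Without labelled knockout livers 4 and 5 there were 11 inverted, 43 narrowed and 71 widened genes and 1 called interferon-stimulated gene. With a tissue difference of at least 2 in place of 1, 11 were lost and 29 gained. The causes were not tested.

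Kidney and liver of equal genotype and title number may come from 1 mouse, which the labels do not say. The residuals of such pairs correlated between -0.169 and 0.394, with 3 of 10 over 0.1, and 2 of 10 kidneys correlated best with the liver of their own number. With the mouse as a replicate block 181 genes were called, 158 of them among the 265, with 38 narrowed genes, 6 called fatty acid synthesis genes and 1 called interferon-stimulated gene. Of 84 named genes 72 had the same call in that fit and 12 were not called, among them Acss2, Fn1, Pgd, Ier5, Pklr, Oasl1, Col4a3bp, Cd207, Ccr3, Tmem117 and Trpm3. Fitted values of genes with no count in a group, such as Moxd1, depend on the prior count.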

Other observations

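The genes below were chosen after their values were seen. Cd36, the fatty acid translocase, stood at 85.5, 145, 189, 217 and 294 CPM in wild-type kidney and 217, 292, 367, 376 and 470.2 in labelled knockout kidney, and at 42.6, 46.3, 51.4, 72.3 and 84.95 in wild-type liver and 6.33, 9.71, 10.2, 12.5 and 14.9 in labelled knockout liver (log2 difference 3.36 ± 0.42, adjusted p = 5.96e-05). It fell in liver, and its kidney effect of 0.89 was not called (adjusted p = 0.0709). Aqp7, the glycerol channel, stood at 17.96 to 23.96 and 16.1 to 21.2 CPM in the kidneys of both genotypes, and fell from 0.728, 1.09, 1.47, 1.52 and 1.85 to 0, 0, 0.0366, 0.05225 and 0.146 CPM in liver (log2 difference 4.50 ± 0.49, adjusted p = 1.89e-05). Azgp1, a secreted zinc-binding glycoprotein gene, moved in kidney, from 5.06, 5.35, 8.73, 13.3 and 13.9 to 60.1, 72.2, 88.8, 93.97 and 110.5 CPM, with livers at 1580 to 2139 and 1885 to 2170 (log2 difference 3.04 ± 0.36, adjusted p = 3.75e-05). Akr1c18, a hydroxysteroid dehydrogenase gene, had called effects of 1.64 in kidney and -2.71 in liver (log2 difference 4.35 ± 0.75, adjusted p = 0.00244).

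Meg3 and Rian, neighbouring imprinted noncoding RNAs of chromosome 12, moved in liver together. Meg3 stood at 1.26, 1.265, 1.30, 1.43 and 2.22 CPM in wild-type liver and 15.9, 23.1, 56.4, 76.3 and 130.2 in labelled knockout liver (log2 difference -5.90 ± 0.79, adjusted p = 0.000166), and Rian at 0.677, 0.728, 0.738, 1.145 and 1.62 and 7.90, 15.1, 39.02, 40.6 and 87.3 (log2 difference -6.06 ± 0.84, adjusted p = 0.000233). In the kidneys Meg3 was at 0.362 to 1.70 and 0.1115 to 0.9025 CPM. The flavin monooxygenase genes Fmo1 (1.41), Fmo2 (2.05) and Fmo4 (1.52) of chromosome 1 were called in the same direction. Fmo2 lost the call without labelled knockout livers 4 and 5.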
